A study of Oryza sativa with 4 samples.

Results

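The set described here holds 65 rice gene identifiers whose counted RNA was at least 2-fold lower in the line DC90 than in the line 9311, both after 36 h of chilling and before it. They were chosen from 40745 identifiers that begin with BGIOSGA, in a table of 88509 identifiers in all. The rule was a DC90 value at least 2-fold below the 9311 value at each time on the log2(FPKM + 1) scale, where FPKM counts fragments per kilobase of gene length and relative to the library total. It was met by 132 BGIOSGA identifiers, of which 67 lay in 3 ranges of identifier numbers (10224 to 10354, 12710 to 13206 and 36041 to 37534) and were left out. The line difference at each time chose the set, so that difference and all that follows from it are given as a description, with no test. The identifiers have no gene names in the sources used here, and 0 of the table's identifiers were in the reference gene table. They are therefore described by level, response, coding length and place in the identifier order, and no function, chromosome position or sequence is given. Coding length here means the gene length recovered from the FPKM values. No source used here states that it is the length of a coding sequence.

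The RNA came from whole rice seedlings at the 3-leaf stage. The 4 groups were DC90 after 36 h of chilling, DC90 before chilling (0 h), 9311 after 36 h of chilling and 9311 before chilling (0 h). The line DC90 tolerates chilling and is a chromosome substitution line, and 9311, which the labels also call YD6, is its chilling-sensitive recurrent parent. Neither the donor of the DC90 segments nor the chilling temperature or the time of day is stated in the sources used here. Each group is 1 library, made from equal amounts of RNA of 3 replicates, so no spread between seedlings can be given and no test between groups was run. No library came from unchilled seedlings at 36 h, so effects of chilling and of 36 h of growth cannot be told apart. The library totals, recovered from the steps of the FPKM values, lay between 10580163 and 11800685 reads. Since no identifier carries a name, tissue and cell type markers could not be read. In RNA of whole seedlings, fewer cells of a type and less RNA per cell cannot be told apart.

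As background, a chromosome substitution line is bred by crossing a donor to a recurrent parent and backcrossing, until donor segments stand in an otherwise recurrent genome. Inside a donor segment the line carries the donor's alleles, and a gene of the recurrent parent can there be expressed at another level, be silent or be missing. Outside the segments the lines are expected to share their alleles. Rice seedlings, those of indica rice such as 9311 above all, are sensitive to chilling, which changes the RNA level of a large part of their genes within hours to days.

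The 65 identifiers fell into a group without counted reads in DC90 and a group with fewer reads than in 9311. No source used here names the aligner, build or annotation behind the values, so whether reads of donor alleles were counted as completely as those of 9311 alleles was not tested. A low or 0 value in DC90 is therefore a level as counted for the identifier, and fewer transcripts and fewer aligned reads cannot be told apart. In DC90, 19 were listed at 0 at both times, 7 were above 0 at 1 time and 39 were above 0 at both times. At 36 h the DC90 values ran from 0 to 133 FPKM with a median of 0.691, against 1.12 to 474 FPKM with a median of 7.31 in 9311. At 0 h the DC90 values ran from 0 to 125 FPKM with a median of 0.690, against 1.03 to 260 FPKM with a median of 7.06 in 9311. The 9311 levels were below those of other genes, since the 20468 BGIOSGA identifiers with at least 1 FPKM in 9311 at both times had a 9311 median of 16.1 FPKM at 36 h and 16.0 at 0 h. The rule requires at least 1 FPKM in 9311 at both times and, through the added 1, a wider ratio where FPKM is low. The median line ratio (log2 of DC90 + 1 over 9311 + 1) was -1.89 at 36 h and -1.35 at 0 h. Over all 24192 BGIOSGA identifiers with at least 1 FPKM in any library these medians were 0.06 at 36 h and 0.01 at 0 h.

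For the background, 3.61% of the BGIOSGA identifiers measured at 36 h were lower in DC90 by the same rule, and 1.87% of those measured at 0 h. Meeting it at both times were 0.546% of the 24192 measured in any library, and 0.283% of the 22980 outside the left-out ranges. The rule used these contrasts, so nothing is read from the shares. The counterpart set, higher in DC90 at both times outside the ranges, held 49 identifiers, or 0.213%. Of these, 20 were listed at 0 in both 9311 libraries.

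**Figure D1:**
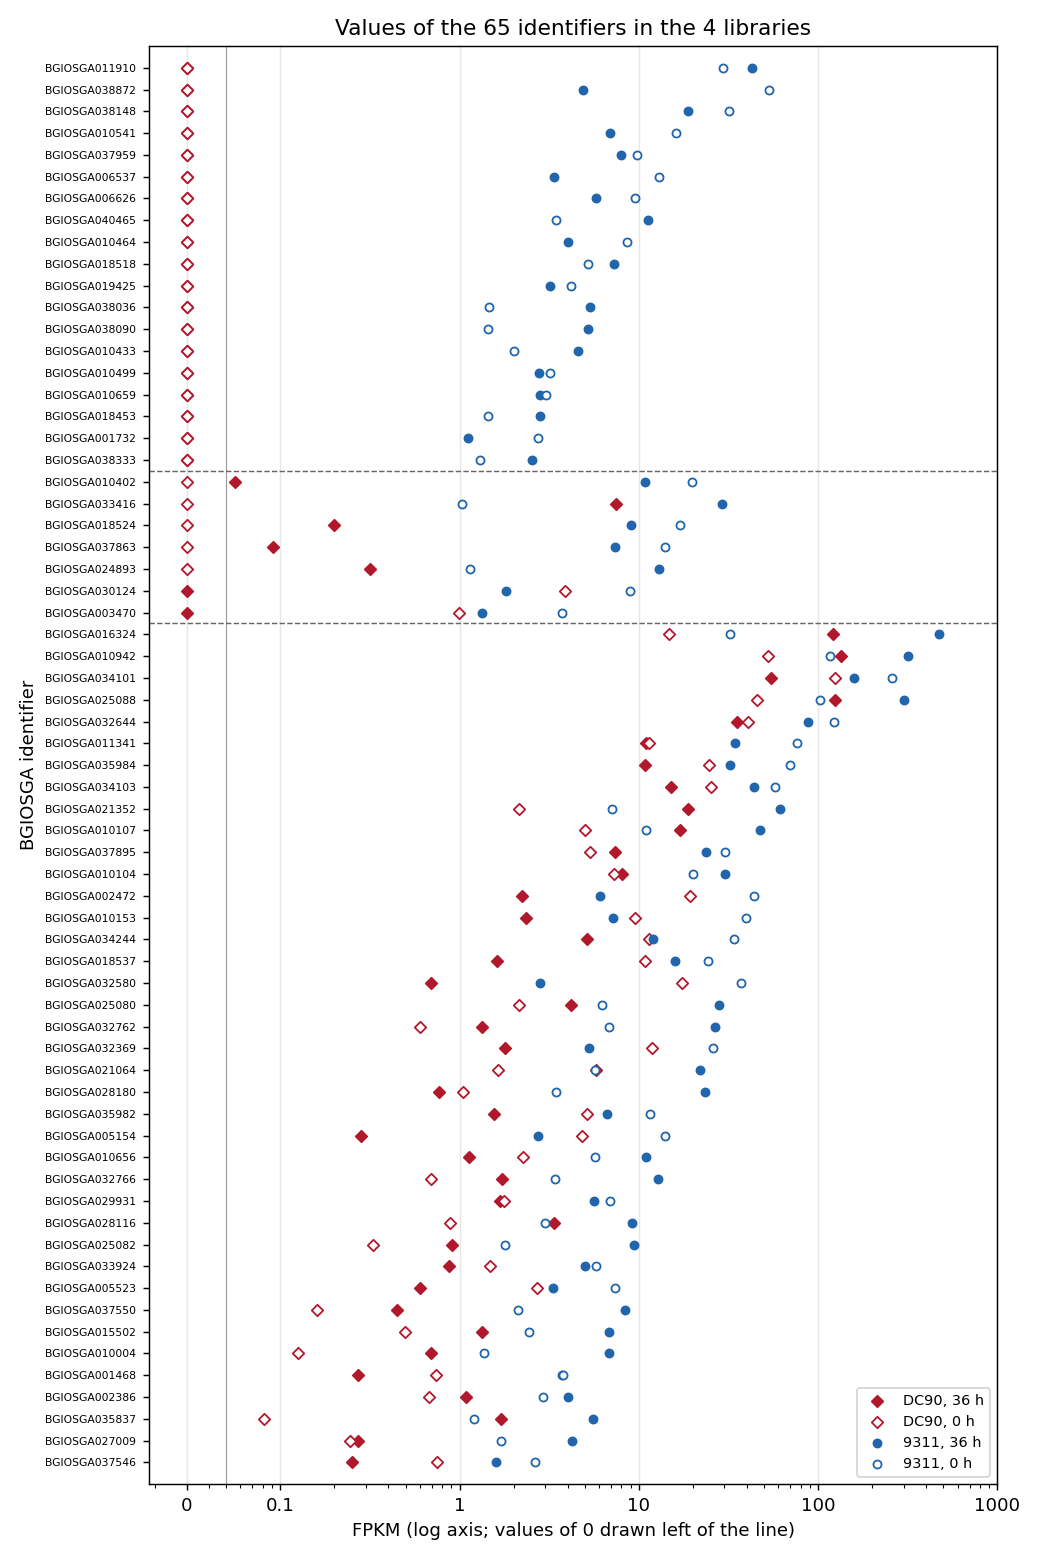
FPKM of the 65 identifiers in each library, on a log axis with values of 0 drawn left of the vertical line; diamonds are DC90 and circles 9311, filled at 36 h and open at 0 h. From top to bottom, dashed lines part the 19 identifiers at 0 in both DC90 libraries, the 7 above 0 in 1 of them and the 39 above 0 in both; within each identifier the DC90 value lies left of the 9311 value of the same time.

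The identifier with the most RNA in 9311 among those listed at 0 in DC90 was BGIOSGA011910. It was at 0 FPKM in DC90 against 43.0 FPKM, from 318 reads, in 9311 at 36 h. At 0 h it was at 0 FPKM in DC90 against 29.4 FPKM, from 235 reads, in 9311. With DC90 set at 3 reads per library, the highest count that a listing of 0 leaves likely, it was at least 103-fold lower in DC90 at 36 h and at least 77.7-fold lower at 0 h. Such limits cover counting error only, since PCR reads are not independent molecules.

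BGIOSGA038872 had the highest 9311 value of the 19 at 0 h and a much lower one at 36 h. It was at 0 FPKM in DC90 against 4.88 FPKM in 9311 at 36 h, and at 0 FPKM in DC90 against 53.4 FPKM in 9311 at 0 h. The DC90 values were at least 15.9-fold lower at 36 h and at least 192-fold lower at 0 h. In 9311 its 36 h level was 0.0915 times its 0 h level, with a 95% counting interval of 0.0669 to 0.123, from 49 reads at 36 h and 580 at 0 h. BGIOSGA038148 was at 0 FPKM in DC90 against 18.8 FPKM in 9311 at 36 h, and at 0 FPKM in DC90 against 31.9 FPKM in 9311 at 0 h. These 3 identifiers had the lowest mean line ratios of the whole set.

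Among the other identifiers at 0 in both DC90 libraries, 5 rested on at least 50 reads in 9311 at each time. BGIOSGA018518 was at 0 FPKM in DC90 against 7.31 FPKM in 9311 at 36 h, and at 0 FPKM in DC90 against 5.18 FPKM in 9311 at 0 h. Its long coding length of 2535 bases gave 202 reads in 9311 at 36 h and 155 at 0 h, so that DC90 was at least 65.4-fold lower at 36 h and at least 51.3-fold lower at 0 h. The next 2 had lower values at 36 h than at 0 h in 9311. BGIOSGA010541 was at 0 FPKM in DC90 at both times, against 6.89 FPKM in 9311 at 36 h and 16.1 FPKM in 9311 at 0 h. BGIOSGA006626 was at 0 FPKM in DC90 at both times, against 5.78 FPKM in 9311 at 36 h and 9.48 FPKM in 9311 at 0 h. BGIOSGA019425 and BGIOSGA010499 had less FPKM but long coding lengths, 2544 and 1941 bases. BGIOSGA019425 was at 0 FPKM in DC90 at both times, against 3.21 FPKM in 9311 at 36 h and 4.16 FPKM in 9311 at 0 h, and was at least 28.8-fold lower at 36 h and at least 41.3-fold lower at 0 h. BGIOSGA010499 was at 0 FPKM in DC90 at both times, against 2.79 FPKM in 9311 at 36 h and 3.19 FPKM in 9311 at 0 h.

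The remaining identifiers of the 19 had fewer recovered reads, and on those reads their listing at 0 says less. BGIOSGA006537 was at 0 FPKM in DC90 at both times, against 3.36 FPKM in 9311 at 36 h and 12.9 FPKM in 9311 at 0 h, from 13 and 54 reads. BGIOSGA010464 was at 0 FPKM in DC90 at both times, against 4.03 FPKM in 9311 at 36 h and 8.63 FPKM in 9311 at 0 h, from 19 and 44 reads. BGIOSGA040465 was at 0 FPKM in DC90 at both times, against 11.2 FPKM in 9311 at 36 h and 3.45 FPKM in 9311 at 0 h, from 27 and 9 reads. The last of these was higher in 9311 at 36 h and the other 2 were lower there. The recovered lengths of BGIOSGA006537 and BGIOSGA040465, 355 and 221 bases, are not multiples of 3. Of all measured lengths 99.1% are, so the reads given for these 2 may be too few. The lengths of all 19 rest on the 9311 libraries alone, and a lost factor other than 3 would not show in this way. Reads given for others of the 19 may therefore be too few as well. BGIOSGA038036 and BGIOSGA038090 had nearly equal FPKM, from unequal numbers of reads. BGIOSGA038036 was at 0 FPKM in DC90 at both times, against 5.33 FPKM in 9311 at 36 h and 1.46 FPKM in 9311 at 0 h, from 27 and 8 reads. BGIOSGA038090 was at 0 FPKM in DC90 at both times, against 5.18 FPKM in 9311 at 36 h and 1.44 FPKM in 9311 at 0 h, from 10 and 3 reads. For BGIOSGA038090 the ratio of 36 h to 0 h in 9311 was 3.61 with an interval of 0.929 to 20.4, so neither that response nor the line difference at 0 h was detectable at this depth.

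The last 6 were mostly under 5 FPKM in 9311. BGIOSGA010433 was at 0 FPKM in DC90 at both times, against 4.57 FPKM in 9311 at 36 h and 2.002 FPKM in 9311 at 0 h. BGIOSGA018453 was at 0 FPKM in DC90 at both times, against 2.82 FPKM in 9311 at 36 h and 1.45 FPKM in 9311 at 0 h. BGIOSGA038333 was at 0 FPKM in DC90 at both times, against 2.54 FPKM in 9311 at 36 h and 1.30 FPKM in 9311 at 0 h. These 3 rested on 9 to 19 reads per 9311 library. For the others, the 9311 reads numbered at most 8 per library, and at this depth a difference from 3 reads is small or not detectable. BGIOSGA037959 was at 0 FPKM in DC90 at both times, against 7.98 FPKM in 9311 at 36 h and 9.83 FPKM in 9311 at 0 h, on a recovered length of 69 bases. BGIOSGA010659 was at 0 FPKM in DC90 at both times, against 2.82 FPKM in 9311 at 36 h and 3.04 FPKM in 9311 at 0 h. BGIOSGA001732 was at 0 FPKM in DC90 at both times, against 1.12 FPKM, from 3 reads, in 9311 at 36 h and 2.76 FPKM, from 8 reads, in 9311 at 0 h.

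Over the whole table, 42 BGIOSGA identifiers were listed at 0 in both DC90 libraries with at least 1 FPKM in 9311 at both times, 0.205% of the 20468 with that 9311 level. Of these 42, 23 lay in the left-out ranges and the other 19 are those above.

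Of the 7 identifiers above 0 in DC90 at 1 time, 4 had a single DC90 read at 36 h. BGIOSGA010402 was at 0.0558 FPKM, from 1 read, in DC90 against 10.9 FPKM, from 201 reads, in 9311 at 36 h. At 0 h it was at 0 FPKM in DC90 against 19.8 FPKM, from 397 reads, in 9311. At 36 h it was 195-fold lower in DC90 with a 95% counting interval of 34.6 to 7743. BGIOSGA037863 was at 0.0905 FPKM in DC90 against 7.38 FPKM in 9311 at 36 h, and at 0 FPKM in DC90 against 14.0 FPKM in 9311 at 0 h. BGIOSGA018524 was at 0.199 FPKM in DC90 against 9.10 FPKM in 9311 at 36 h, and at 0 FPKM in DC90 against 17.0 FPKM in 9311 at 0 h. In these 3 the DC90 reads were so few that they stand closer to the 19 at 0 than to the identifiers with fewer reads in DC90.

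BGIOSGA024893 was at 0.318 FPKM, from 1 read, in DC90 against 13.0 FPKM, from 42 reads, in 9311 at 36 h. At 0 h it was at 0 FPKM in DC90 against 1.14 FPKM, from 4 reads, in 9311, a difference not detectable at this depth. BGIOSGA033416 was at 7.45 FPKM, from 13 reads, in DC90 against 28.9 FPKM, from 52 reads, in 9311 at 36 h. At 0 h it was at 0 FPKM in DC90 against 1.03 FPKM, from 2 reads, in 9311, and that difference too was not detectable. BGIOSGA030124 was at 0 FPKM in DC90 against 1.82 FPKM, from 10 reads, in 9311 at 36 h, and at 3.90 FPKM, from 23 reads, in DC90 against 8.91 FPKM, from 53 reads, in 9311 at 0 h. BGIOSGA003470 was at 0 FPKM in DC90 against 1.34 FPKM, from 5 reads, in 9311 at 36 h, and at 0.999 FPKM in DC90 against 3.72 FPKM in 9311 at 0 h. For these 4 the place in the set therefore rests, at 1 of the times, on few reads.

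The 39 identifiers above 0 in both DC90 libraries kept a fraction of the 9311 level. DC90 FPKM was 3.27% to 43.2% of 9311 FPKM at 36 h, with a median of 26.4%. At 0 h it was 6.72% to 48.0%, with a median of 30.2%. On the log2(FPKM + 1) scale, 10 of the 39 were beyond 4-fold at 36 h and 3 at 0 h, with 1 beyond it at both times. These shares are bounded above by the rule. In the plot of DC90 against 9311 these identifiers form a band under the line of a 2-fold difference, apart from the row of values at 0.

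**Figure D2:**
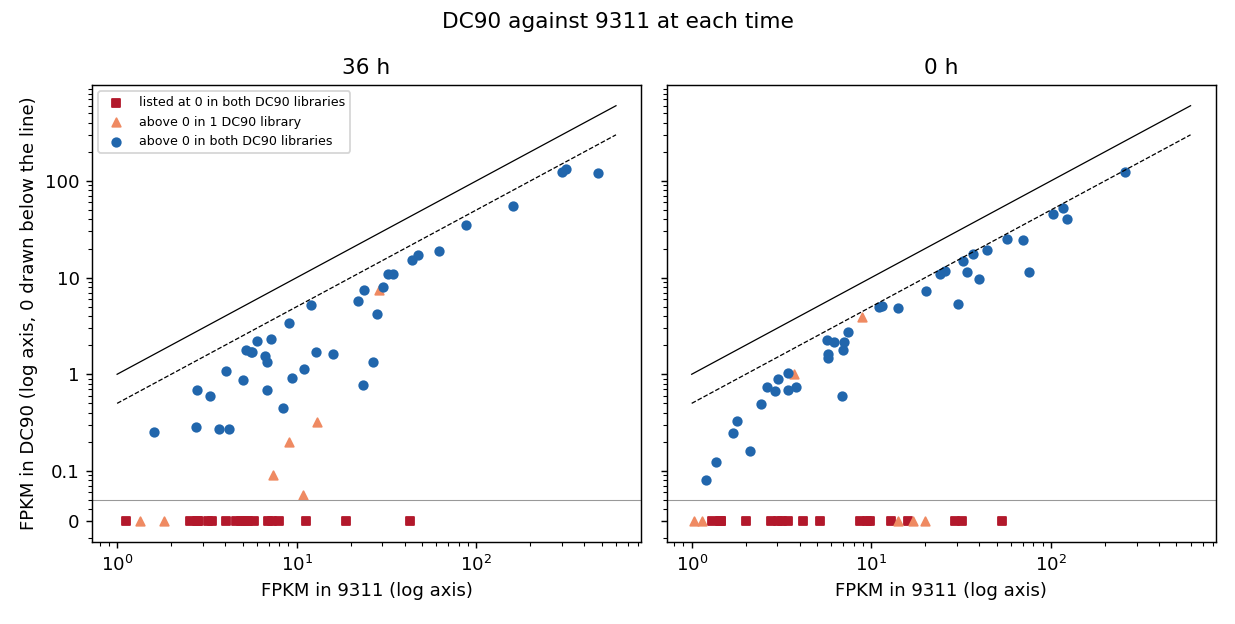
FPKM in DC90 against FPKM in 9311 for the 65 identifiers at 36 h (left) and 0 h (right), on log axes with DC90 values of 0 drawn below the horizontal line; the solid line marks equal values and the dashed line a 2-fold lower value in DC90. The 39 identifiers above 0 in both DC90 libraries had median DC90 values of 26.4% of the 9311 value at 36 h and 30.2% at 0 h.

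BGIOSGA016324 had the highest mean level in 9311. It was at 121 FPKM in DC90 against 474 FPKM in 9311 at 36 h, and at 14.7 FPKM in DC90 against 32.4 FPKM in 9311 at 0 h. The DC90 level was 3.92-fold lower at 36 h, with a counting interval of 3.77 to 4.08, and 2.21-fold lower at 0 h, with an interval of 1.96 to 2.48. These intervals cover counting error in single libraries and do not test the lines against each other.

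BGIOSGA010942 and BGIOSGA025088 had nearly the same values in all 4 libraries, although they are 14146 apart in identifier number and their coding lengths are 1773 and 450 bases. BGIOSGA010942 was at 133 FPKM in DC90 against 317 FPKM in 9311 at 36 h, and at 52.6 FPKM in DC90 against 116 FPKM in 9311 at 0 h. BGIOSGA025088 was at 125 FPKM in DC90 against 301 FPKM in 9311 at 36 h, and at 45.5 FPKM in DC90 against 103 FPKM in 9311 at 0 h. Their largest difference in any library was 1.16-fold, the smallest of all pairs among the 39, and the pair was singled out after the values were seen. DC90 was lower by 2.38-fold and 2.41-fold at 36 h and by 2.21-fold and 2.25-fold at 0 h. Whether the reads counted for them can be shared between like copies was not tested.

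BGIOSGA034101 and BGIOSGA034103 are 2 apart in number and both have a recovered coding length of 1107 bases. BGIOSGA034101 was at 54.9 FPKM in DC90 against 159 FPKM in 9311 at 36 h, and at 125 FPKM in DC90 against 260 FPKM in 9311 at 0 h. BGIOSGA034103 was at 15.1 FPKM in DC90 against 43.9 FPKM in 9311 at 36 h, and at 25.3 FPKM in DC90 against 57.3 FPKM in 9311 at 0 h. The DC90 level was lower by 2.90-fold and 2.91-fold at 36 h, and by 2.08-fold and 2.26-fold at 0 h. The line difference was thus of like size in the pair, while their levels differed several-fold.

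Further identifiers were among the 10 highest in 9311. BGIOSGA032644 was at 35.1 FPKM in DC90 against 87.2 FPKM in 9311 at 36 h, and at 40.4 FPKM in DC90 against 122 FPKM in 9311 at 0 h. BGIOSGA035984 was at 10.8 FPKM in DC90 against 32.1 FPKM in 9311 at 36 h, and at 24.5 FPKM in DC90 against 70.1 FPKM in 9311 at 0 h. BGIOSGA021352 was at 18.8 FPKM in DC90 against 61.7 FPKM in 9311 at 36 h, and at 2.13 FPKM in DC90 against 7.06 FPKM in 9311 at 0 h. The line difference of BGIOSGA021352 was 3.28-fold at 36 h and 3.31-fold at 0 h, so it was kept while the level itself was several times higher at 36 h in both lines. BGIOSGA011341 stood at 11.0 FPKM in DC90 against 34.6 FPKM in 9311 at 36 h, and at 11.4 FPKM in DC90 against 75.9 FPKM in 9311 at 0 h. In contrast to BGIOSGA016324 its line ratio was nearer to 1 at 36 h, with DC90 3.14-fold lower at 36 h (counting interval 2.54 to 3.90) and 6.65-fold lower at 0 h (5.53 to 8.04).

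The members nearest to the threshold show how narrowly some were chosen. Just inside it, BGIOSGA010107 had a line ratio of -1.002 at 0 h and BGIOSGA030124 one of -1.02 at 0 h. BGIOSGA033416 also had -1.02 and BGIOSGA035837 had -1.03, again at 0 h. Just outside it, BGIOSGA026253 had a line ratio of -1.27 at 36 h and -0.999 at 0 h. BGIOSGA033316 had -0.996 at 36 h and -1.01 at 0 h, BGIOSGA011363 -0.990 at 36 h and -1.19 at 0 h, and BGIOSGA028476 -0.987 at 36 h and -1.36 at 0 h. All 4 nearest members came close to the threshold at 0 h, whereas 3 of the 4 nearest others missed it at 36 h.

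Identifiers past 2-fold after 36 h of chilling were found in both directions in each line. The lines mostly shared the direction of the response, as they did over the whole table. Response here means the log2 ratio of FPKM + 1 at 36 h over 0 h within a line. These values come from the libraries the rule used and are given as a description. In DC90, 9 of the 65 (13.8%) were at least 2-fold higher and 12 (18.5%) at least 2-fold lower at 36 h, against 14.5% higher and 15.3% lower among the BGIOSGA identifiers measured in DC90. In 9311, 21 were higher (32.3%) and 13 lower (20%), against 16.1% higher and 18.2% lower among those measured in 9311. Higher in both lines were 9 identifiers (13.8%) and lower in both were 8 (12.3%), against 10.4% higher and 11.5% lower in both lines among all 24192 measured. None of the 65 was past 2-fold in opposite directions, against 0.0579% of all measured. Of the 39 above 0 in both DC90 libraries, 36 (92.3%) had responses of the same sign. The same held for 84.3% of the 20398 BGIOSGA identifiers above 0 in both DC90 libraries with at least 1 FPKM in 9311 at both times. The 19 at 0 in both DC90 libraries cannot show a response in DC90. They count among the 65, whereas the shares of 14.5% and 15.3% hold only identifiers with at least 1 FPKM in DC90. The 13.8% and 18.5% are therefore not read against them. Of the 39 above 0 in both DC90 libraries, 8 were at least 2-fold higher and 11 at least 2-fold lower at 36 h in DC90.

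**Figure D3:**
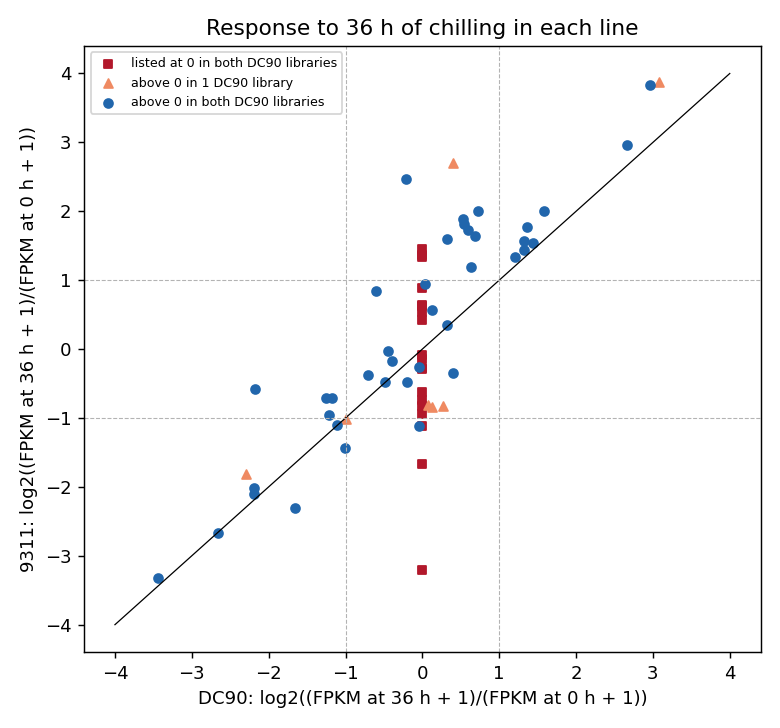
Response in DC90 (horizontal axis) and in 9311 (vertical axis), each as log2 of FPKM + 1 at 36 h over 0 h, for the 65 identifiers; the diagonal marks equal responses and dashed lines a 2-fold change. Of the 39 identifiers above 0 in both DC90 libraries, 36 had the same sign in both lines, and the 19 listed at 0 in DC90 stand in a column at 0.

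Among those higher at 36 h in both lines, BGIOSGA033416 and BGIOSGA016324 had the largest responses on the log2(FPKM + 1) scale. The ratios that follow are plain ratios of FPKM. BGIOSGA016324 was 8.22 times as high at 36 h as at 0 h in DC90, with a counting interval of 7.42 to 9.13, and 14.6 times as high in 9311, with an interval of 13.7 to 15.6. BGIOSGA033416 was 28.1 times as high at 36 h in 9311, with an interval of 7.41 to 239. In DC90 it had 13 reads at 36 h and none at 0 h, and the counting interval of that ratio began at 3.37. BGIOSGA021352 was 8.81 times as high at 36 h in DC90 and 8.73 times as high in 9311, so its ratios were nearly equal. BGIOSGA035837 had a larger plain ratio in DC90, 21.0, but with 19 reads at 36 h and 1 at 0 h its interval ran from 3.34 to 874. In 9311 its ratio was 4.62, from 64 and 15 reads. BGIOSGA010107 was at 17.0 FPKM at 36 h and 5.01 FPKM at 0 h in DC90, and at 47.4 FPKM at 36 h and 11.0 FPKM at 0 h in 9311. Its ratio of 36 h to 0 h was 3.40 in DC90 and 4.29 in 9311.

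Among those lower at 36 h in both lines, BGIOSGA032580 had the largest responses. It was at 0.690 FPKM at 36 h and 17.4 FPKM at 0 h in DC90, and at 2.80 FPKM at 36 h and 37.0 FPKM at 0 h in 9311. It was 25.1-fold lower at 36 h in DC90, with a counting interval of 13.9 to 50.9, and 13.2-fold lower in 9311, with an interval of 9.78 to 18.2. Its intervals in the 2 lines overlap. BGIOSGA002472 was at 2.22 FPKM at 36 h and 19.4 FPKM at 0 h in DC90, and at 6.04 FPKM at 36 h and 44.0 FPKM at 0 h in 9311. BGIOSGA032369 was at 1.80 FPKM at 36 h and 11.8 FPKM at 0 h in DC90, and at 5.25 FPKM at 36 h and 25.8 FPKM at 0 h in 9311. BGIOSGA010153 was at 2.34 FPKM at 36 h and 9.57 FPKM at 0 h in DC90, and at 7.21 FPKM at 36 h and 39.6 FPKM at 0 h in 9311. All 4 thus stayed under the 9311 level at each time while their levels went in the same direction with time.

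Past 2-fold higher in 9311 but not in DC90 were 12 identifiers (18.5%), against 5.27% of all 24192 measured. The rule favours low values in DC90, where the added 1 narrows a ratio, so the count is not read against that share. Of the 12, 8 were above 0 in both DC90 libraries, and 7 of these 8 stayed under 2 FPKM in DC90 at both times. Without the added 1, the ratio of 36 h to 0 h in DC90 was at least 2 for 6 of the 8. Of these 6, only BGIOSGA015502 had a DC90 counting interval above 1, at 1.32 to 5.75. For the rest of the 6 a DC90 response was not detectable at this depth. BGIOSGA010004, for example, was at 0.691 FPKM at 36 h and 0.125 FPKM at 0 h in DC90, and at 6.84 FPKM at 36 h and 1.36 FPKM at 0 h in 9311, ratios of 5.53 in DC90 and 5.02 in 9311. Its DC90 ratio rested on 5 and 1 reads, with an interval of 0.619 to 262. Of the 2 with a DC90 ratio under 2, 1 was BGIOSGA028180, at 0.768 FPKM at 36 h and 1.04 FPKM at 0 h in DC90, and at 23.5 FPKM at 36 h and 3.44 FPKM at 0 h in 9311. Its 9311 ratio was 6.82 with an interval of 3.47 to 14.9, while the DC90 ratio of 0.738 rested on 2 and 3 reads, with an interval of 0.0616 to 6.44 that overlaps it.

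The difference of responses is the line ratio at 36 h minus that at 0 h, and both were used by the rule. It was past 2-fold upward in DC90 for 5 of the 65 and downward for 12, against 3.75% upward and 4.51% downward among all 24192 measured. Of the 5 and the 12, 3 and 3 were at 0 in both DC90 libraries, where the difference is the 9311 response with its sign turned. The largest upward values, 3.21 for BGIOSGA038872, 1.67 for BGIOSGA006537 and 1.11 for BGIOSGA010541, were of this kind, and so was -1.46 for BGIOSGA040465. BGIOSGA018524 followed upward at 1.10, with 1 DC90 read in all. The last of the 5 upward was BGIOSGA011341 at 1.06, with 115 DC90 reads at 36 h and 132 at 0 h. Its ratio of 36 h to 0 h was 0.964 in DC90, with a counting interval of 0.744 to 1.25. In 9311 that ratio was 0.456, with an interval of 0.402 to 0.515. The largest downward values were -2.67 for BGIOSGA028180, -2.31 for BGIOSGA024893 and -1.60 for BGIOSGA018537.

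Among the identifiers named for downward differences of responses, BGIOSGA018537 had the most reads in DC90. It was at 1.61 FPKM, from 28 reads, at 36 h and 10.8 FPKM, from 208 reads, at 0 h in DC90. In 9311 it was at 15.9 FPKM, from 285 reads, at 36 h and 24.3 FPKM, from 471 reads, at 0 h. Its ratio of 36 h to 0 h was 0.149 in DC90, with an interval of 0.0966 to 0.222, and 0.655 in 9311, with an interval of 0.563 to 0.760. For 4 of the 39 above 0 in both DC90 libraries, such intervals of the 2 lines lay apart. In 3 of the 4 the ratio was higher in 9311. Over the 39, the line ratio on the log2(FPKM + 1) scale was lower at 36 h for 31 and lower at 0 h for 8. The plain DC90 share of the 9311 value was lower at 36 h for 28 of the 39. Over all 65 members, the line ratio was lower at 36 h for 42 and lower at 0 h for 23. For the 19 listed at 0 in both DC90 libraries these counts were 8 and 11. The rule used both ratios. Neither these counts nor that of intervals lying apart is given over all measured identifiers, so none is read as a trait of the set. Among all measured, 3.61% were lower in DC90 by the 2-fold rule at 36 h and 1.87% at 0 h. Whether the line difference changed with time in the set was therefore not tested.

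The coding lengths of the 65 were short. Their recovered lengths ran from 69 to 2637 bases with a median of 687, against a median of 1026 for all measured BGIOSGA identifiers. A recovered length is the smallest that makes all reads whole, and fewer libraries above 0 make it smaller, so lengths were also recovered from the 9311 libraries alone. The medians were then 638 bases for the 65 and 879 for the 20468 with at least 1 FPKM in 9311 at both times. The median was 465 bases for the 19 at 0 in both DC90 libraries and 693 for the 39 above 0 in both. The counterpart set, higher in DC90 at both times, had a median of 408 bases from all libraries. Of its 49 identifiers, 20 were at 0 in both 9311 libraries, so their lengths rest on fewer libraries. Its median was not recovered from the 9311 libraries alone and is not compared with those medians. At like FPKM, a shorter length gives fewer reads and wider counting error. Of the 65, 44 had at least 20 reads in 9311 at both times.

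The 65 identifiers were spread over the identifier order, but not evenly. They lay in 25 of 41 bins of 1000 numbers. The bin from 10000 to 10999 held 12 of them among 540 measured identifiers outside the left-out ranges, or 2.22%. The bin from 37000 to 37999 held 5 of 261, the bin from 38000 to 38999 held 5 of 121, and the bin from 32000 to 32999 held 5 of 433. The share over all bins was 0.283%. The 5 in the bin from 38000 were all listed at 0 in both DC90 libraries, as were 5 of the 12 in the bin from 10000, whereas none of the 5 in the bin from 32000 was. Between BGIOSGA019425 and BGIOSGA037959 no member was at 0 in both DC90 libraries. In the bin from 10000, 8 identifiers were higher in DC90 at both times, and in the bin from 38000 none was. Places on chromosomes were not analysed here, and order refers to the numbers alone.

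**Figure D4:**
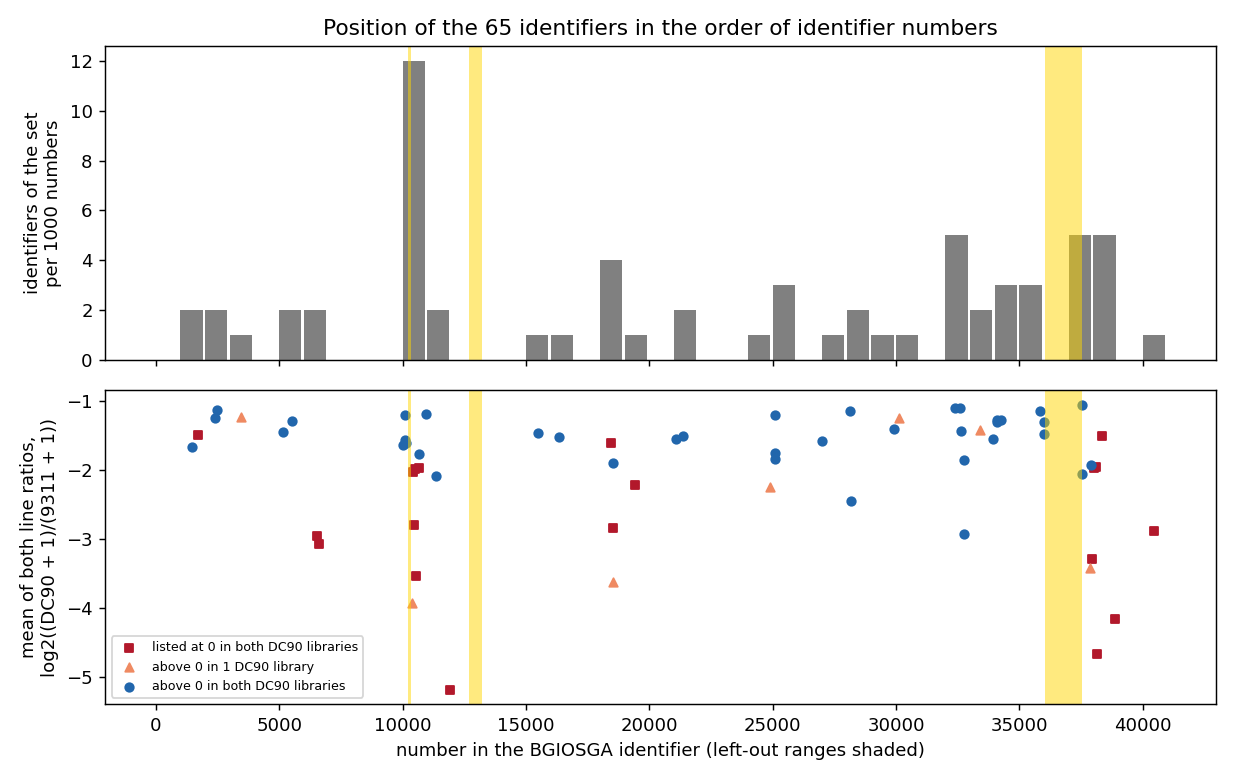
Number of the 65 identifiers per 1000 identifier numbers (top) and the mean of both line ratios, as log2 of DC90 + 1 over 9311 + 1, of each identifier against its number (bottom), with the left-out ranges shaded. The fullest bin, from 10000 to 10999, holds 12 identifiers, and the 5 of the bin from 38000 to 38999 are all squares, at 0 in both DC90 libraries.

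Part of this unevenness lay beside the left-out ranges. Within 200 numbers of an edge of a range were 12 of the 65 (18.5%), and within 600 numbers 22 (33.8%). Of the 22980 measured identifiers outside the ranges, 3.17% lay within 200 numbers and 9.93% within 600. The ranges were drawn with these data known, so the shares are a description. BGIOSGA037546 and BGIOSGA037550 began 12 numbers after the end of a range, and BGIOSGA035982 and BGIOSGA035984 stood 59 and 57 before the start of the same range. On the low side of the range that starts at 10224 stood BGIOSGA010104, BGIOSGA010107 and BGIOSGA010153, all above 0 in DC90. On its high side, within 200 numbers of the end at 10354, stood BGIOSGA010402, BGIOSGA010433, BGIOSGA010464, BGIOSGA010499 and BGIOSGA010541, and these had 1 DC90 read among them. The 65 are thus scattered in number only in part, since the 12 within 200 numbers of a range adjoin it.

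Close to another member, within 20 numbers, were 18 of the 65 (27.7%), in 8 groups. Of the 22915 measured identifiers outside the ranges that are no members, 5.04% lay within 20 numbers of a member. BGIOSGA025080, BGIOSGA025082 and BGIOSGA025088 spanned 8 numbers with 1 other measured identifier between them, and the first 2 had the same recovered coding length of 519 bases. BGIOSGA025080 was at 4.19 FPKM in DC90 against 27.9 FPKM in 9311 at 36 h, and at 2.14 FPKM in DC90 against 6.20 FPKM in 9311 at 0 h. BGIOSGA025082 was at 0.911 FPKM in DC90 against 9.37 FPKM in 9311 at 36 h, and at 0.329 FPKM in DC90 against 1.80 FPKM in 9311 at 0 h. All 3 of this group were higher at 36 h than at 0 h in each line. In DC90 the counting interval of the ratio of 36 h to 0 h lay above 1 for BGIOSGA025088 alone, at 2.35 to 3.20.

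BGIOSGA032762 and BGIOSGA032766 had no measured identifier between them. BGIOSGA032762 was at 1.33 FPKM in DC90 against 26.7 FPKM in 9311 at 36 h, and at 0.599 FPKM in DC90 against 6.84 FPKM in 9311 at 0 h. BGIOSGA032766 was at 1.72 FPKM in DC90 against 12.8 FPKM in 9311 at 36 h, and at 0.690 FPKM in DC90 against 3.42 FPKM in 9311 at 0 h. Both were higher at 36 h in each line, but in DC90 neither rise was detectable at this depth. The DC90 ratio of BGIOSGA032762 rested on 4 reads at 36 h and 2 at 0 h, with a counting interval of 0.317 to 24.5. That of BGIOSGA032766 rested on 9 and 4 reads, with an interval of 0.695 to 11.1.

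BGIOSGA037550 was at 0.445 FPKM in DC90 against 8.42 FPKM in 9311 at 36 h, and at 0.161 FPKM in DC90 against 2.11 FPKM in 9311 at 0 h. Its neighbour BGIOSGA037546 was at 0.251 FPKM in DC90 against 1.60 FPKM in 9311 at 36 h, and at 0.745 FPKM in DC90 against 2.64 FPKM in 9311 at 0 h. In 9311 these neighbours went opposite ways with time, the first higher and the second lower at 36 h. In DC90 the values went the same ways, but those of BGIOSGA037550 rested on 10 reads at 36 h and 4 at 0 h. The counting interval of its DC90 ratio was 0.798 to 12.1, so its direction in DC90 was not detectable. BGIOSGA035982 was at 1.56 FPKM in DC90 against 6.65 FPKM in 9311 at 36 h, and at 5.11 FPKM in DC90 against 11.5 FPKM in 9311 at 0 h, and like BGIOSGA035984 next to it was lower at 36 h in each line.

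BGIOSGA010104 was at 8.08 FPKM in DC90 against 30.3 FPKM in 9311 at 36 h, and at 7.30 FPKM in DC90 against 20.1 FPKM in 9311 at 0 h. It has a coding length of 690 bases, and BGIOSGA010107, with 2 measured identifiers between them, one of 699. BGIOSGA010656 was at 1.13 FPKM in DC90 against 11.0 FPKM in 9311 at 36 h, and at 2.25 FPKM in DC90 against 5.69 FPKM in 9311 at 0 h. BGIOSGA010659, which was at 0 in DC90, followed with 2 measured identifiers between them. The last group joined unlike members, since BGIOSGA018518 had no read in DC90, BGIOSGA018524 had 1 and BGIOSGA018537 had 28 at 36 h and 208 at 0 h.

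The next measured identifiers on each side of the members, 120 in all without other members and left-out ranges, were not chosen by the rule. None could be lower by the rule at both times, since members and left-out ranges were set aside, but at single times a larger share was lower than in the whole table. At 36 h 11 of them (9.17%) were lower in DC90 and 2 higher, against 3.61% lower and 1.82% higher among all measured. At 0 h 9 (7.50%) were lower and 4 higher, against 1.87% lower and 1.59% higher. Their median line ratio was -0.11 at 36 h and -0.11 at 0 h, against 0.06 at 36 h and 0.01 at 0 h for all measured. These counts carry no test, since identifiers next to each other are not replicates of a condition.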

How the data were processed

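Whole seedlings of 2 lines were profiled by RNA sequencing at 2 times, with 1 library per line and time. Per the labels' protocols, 3 µg of total RNA from each of 3 replicates were mixed per library, and a NEBNext Ultra kit was used for library preparation. The authors deposited 1 table of FPKM values; the submitters' processing notes name HTSeq 0.6.1. Aligner, build and annotation: not given in the sources used here. Titles matched columns to samples.

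The members and alternatives were chosen with earlier results of these data known. FPKM were used on the log2(FPKM + 1) scale without a count test. Whole reads and lengths were recovered from the steps of the FPKM values: the smallest length up to 30000 that made every library's reads whole within 1e-08 was found for all 34043 identifiers above 0. These reads are the smallest that fit and sum to 97.6% to 97.7% of each total; where a factor is lost, counting intervals are too wide. Recovery and rule were tried on data simulated from the recovered lengths and totals. Large drops were planted only in identifiers at 5 FPKM or more, so the finding of low members or of differences near the threshold was not tested. Intervals are exact Clopper-Pearson 95% intervals and cover counting error only. For limits, a DC90 library listed at 0 was given 3 reads. Named members were all those at 0 in both DC90 libraries, the 10 highest in 9311, the 10 with the lowest mean line ratio, the 4 at each end of the responses and their difference, the 4 on each side of the threshold, and those within 20 numbers of another; a few more were named after their values were seen. Python 3.11.15, numpy 2.4.6, pandas 2.3.3, scipy 1.17.1 and matplotlib 3.10.9 were used. The alternatives were a pseudocount of 0.1, a minimum of 5 FPKM, median-of-ratios factors, equal FPKM sums, a 4-fold threshold, at least 20 reads and, chosen after seeing the data, left-out ranges widened by 200 numbers and all alternatives for responses shared by the lines.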

Additional observations from a re-analysis of the deposited data

How the results depend on the processing

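With a pseudocount of 0.1 and at least 1 FPKM in the higher library, 148 identifiers met the rule, all 65 among them, the median line ratio of the 65 was -3.17 at 36 h and -2.16 at 0 h, 11 had an upward difference of responses, 4 of the neighbours met the rule, and over all BGIOSGA identifiers 1303 were lower in DC90 at 36 h and 862 at 0 h, in place of 817 and 429. A 4-fold threshold left 15 of the 65; past it at 36 h over 0 h, 3 were higher and 6 lower in DC90 and 7 higher and 6 lower in 9311, with 3 higher and 4 lower in both lines and 4 higher in 9311 and not in DC90; 1 upward and 2 downward differences of responses remained, and 123 of all identifiers were lower at 36 h and 75 at 0 h. At least 5 FPKM in the higher 9311 library left 53 members, 12 of the 19 at 0 in both DC90 libraries and 283 of all identifiers lower at 0 h. Median-of-ratios factors gave 72 members, the 65 included, and 1 neighbour past the rule; equal FPKM sums gave 70, the 65 included, and moved the median response in DC90 over all measured identifiers by 0.10. At least 20 reads left 44 members, and widened left-out ranges 53. The other recomputed counts stayed within 1.5 times those reported, among them the 36 with responses of the same sign, at 32 to 36. Counts over the identifier order, coding lengths and reads were not recomputed, and widened ranges leave out the 12 within 200 numbers by construction. No paired analysis was possible because each line and time has 1 library. No library could be left out, for the same reason. Depth limits the identifiers with under 20 reads in 9311.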
